A study of Mus musculus with 6 samples.

Results

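Glycosyltransferases, sialyltransferases and sulfotransferases of the Golgi were described in RNA-seq libraries of mouse astrocytes. The members are the protein-coding genes of 12 symbol families (Galnt, St3gal, St6gal with St6galnac, St8sia, B3gnt, B3galt, B4galt, Mgat, Fut, Gxylt, Chst, and the heparan sulfate genes Hs2st, Hs3st and Hs6st), 105 of the 35126 genes counted. They were taken by symbol alone, without use of their values. The tumour group held 3 libraries of astrocytes isolated from brains carrying an allograft of small cell lung cancer (SCLC), and the sham group 3 libraries of astrocytes from brains given a sham injection. Both groups carry no further label: strain, age, sex, genotype, grafted cell line, time after injection and purification of the astrocytes were not given in the sources used here. Nor is it said whether the libraries came from separate animals or cultures, so a p-value speaks of the spread of these 3 and 3 libraries alone, and that spread could be technical.

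These enzymes build the sugar chains of secreted and membrane proteins and of glycolipids. GALNT enzymes start mucin-type O-glycans, MGAT enzymes set the branches of N-glycans, and galactosyl- and N-acetylglucosaminyltransferases extend them. Sialyltransferases cap the chains, and sulfotransferases of the CHST and HS families place sulfate on chondroitin, dermatan, keratan and heparan sulfate, the chains of the proteoglycans that surround astrocytes. In brain, astrocytes are a known source of sulfated proteoglycans, polysialic acid marks immature and migrating neural cells, and gangliosides are abundant membrane lipids.

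The libraries held 22124093 to 25787303 reads on matched genes. Tumour libraries 1 to 3 lay close together, as did sham libraries 1 and 2 (root mean square log2 difference 0.322 to 0.352 over the tested genes), whereas sham 3 differed from sham 1 and 2 by 0.795 to 0.802, more than tumour from sham libraries (0.734 to 0.749). All 10 astrocyte markers listed were detected, with a summed level of 3230 to 3340 CPM (reads scaled to the library size) in the tumour libraries and of 4682, 4700 and 2745 CPM in sham 1, 2 and 3. Of these 10 markers 1 was called higher and 1 lower. Their log2 fold changes ran from -0.94 to 0.51, with 3 positive and 7 negative. The pericyte and fibroblast list summed to 3936 to 3962 CPM in the tumour libraries. In sham 1, 2 and 3 it summed to 3686, 3679 and 6026 CPM. Most of this list's level came from Col1a1 and Col1a2. Sham 3 thus had the lowest astrocyte sum and the highest pericyte and fibroblast sum of all libraries. The neuronal list summed to 196 to 199 CPM in the tumour libraries and 150, 151 and 236 CPM in sham 1 to 3. Rbfox3 was at 0, and most reads of this list fell on Stmn2 (76.7 to 136 CPM) and Map2 (57.5 to 69.6 CPM). Of its 7 tested genes Gad1 was called higher (log2 fold change 1.70) and Tubb3 lower (-1.04), and Nefm, not called, was at 23.3 to 26.5 CPM in the tumour and 2.46 to 14.7 CPM in the sham libraries. The endothelial list summed to 622 to 630 and 549 to 623 CPM, with Cldn5 at 0 and Cdh5 at 497 to 595 CPM, and 1 of its 5 tested genes was called, Kdr, lower. The oligodendrocyte and precursor list summed higher in all tumour libraries, at 439 to 456 CPM against 364 to 388 CPM. However, 4 of its 7 tested genes had a negative log2 fold change (median -0.07). The 1 gene called was Pdgfra, higher, which is also on the pericyte and fibroblast list. The microglial list summed to 209 to 218 CPM in the tumour and 166 to 192 CPM in the sham libraries, with Tmem119 at 79.6 to 110 CPM over all libraries, while Cx3cr1, Ptprc and Itgam stayed at or below 0.374 CPM. The 13 neuroendocrine and SCLC markers summed to 36.4 to 40.3 CPM in the tumour and 48.2 to 54.4 CPM in the sham libraries. Of 7 tested, 0 were called, and all 7 had a negative log2 fold change (median -0.42). The tumour cell marker Epcam, of the same list, went the other way but was near the floor. Epcam was at 0.237 to 0.331 CPM in the tumour libraries and 0 in the sham libraries. In bulk libraries fewer cells of a type cannot be told apart from less RNA per cell, and the part of other cells in the results was not tested.

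Of the 105 members 81 passed the filter on low counts. The other 24 reached at most 0.836 CPM in any library, and 6 of them (Chst4, Galntl5, Mgat4d, Mgat4e, St6gal2 and St8sia3) had no read at all. In TPM, the deposited level that is scaled by transcript length, 40 members had a mean of at least 10, 23 lay between 1 and 10, and 42 were below 1. The highest levels were those of Hs3st1 (150 TPM), Galnt1 (122 TPM), Mgat1 (57.7 TPM), Mgat4b (55.2 TPM), Galnt2 (54.2 TPM) and B4galt1 (52.8 TPM).

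In the tumour libraries 3 members were higher and 10 were lower (edgeR quasi-likelihood fit, p adjusted by Benjamini-Hochberg over all 14359 genes tested, threshold 0.05). Galnt15, Chst1 and Hs3st1 rose. Gxylt2, St8sia2, St3gal5, Mgat5, Chst11, St6galnac4, St3gal4, Mgat3, B4galt4 and Galnt1 fell. The members were called about as often as other genes: 16% of the tested members were called against 20.9% of all tested genes. For rises the shares were 3.7% against 10.5%, and for falls 12.3% against 10.4%. The median log2 fold change of tumour over sham, called log2 change from here on, was -0.10 for the tested members and -0.02 for all tested genes, and it was above 0 in 32 of the 81 members against 48.2% of all tested genes. All tumour values lay above all sham values in 11 of the 81 tested members, against 22.2% of all tested genes. They all lay below the sham values in 21 of the 81, against 21.9% of all tested genes. Together the groups did not overlap in 39.5% of the tested members and in 44.1% of all tested genes. A 2-fold change was called in 2 rises (Galnt15 and Chst1) and 3 falls (Gxylt2, St8sia2 and St3gal5).

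**Figure D1:**
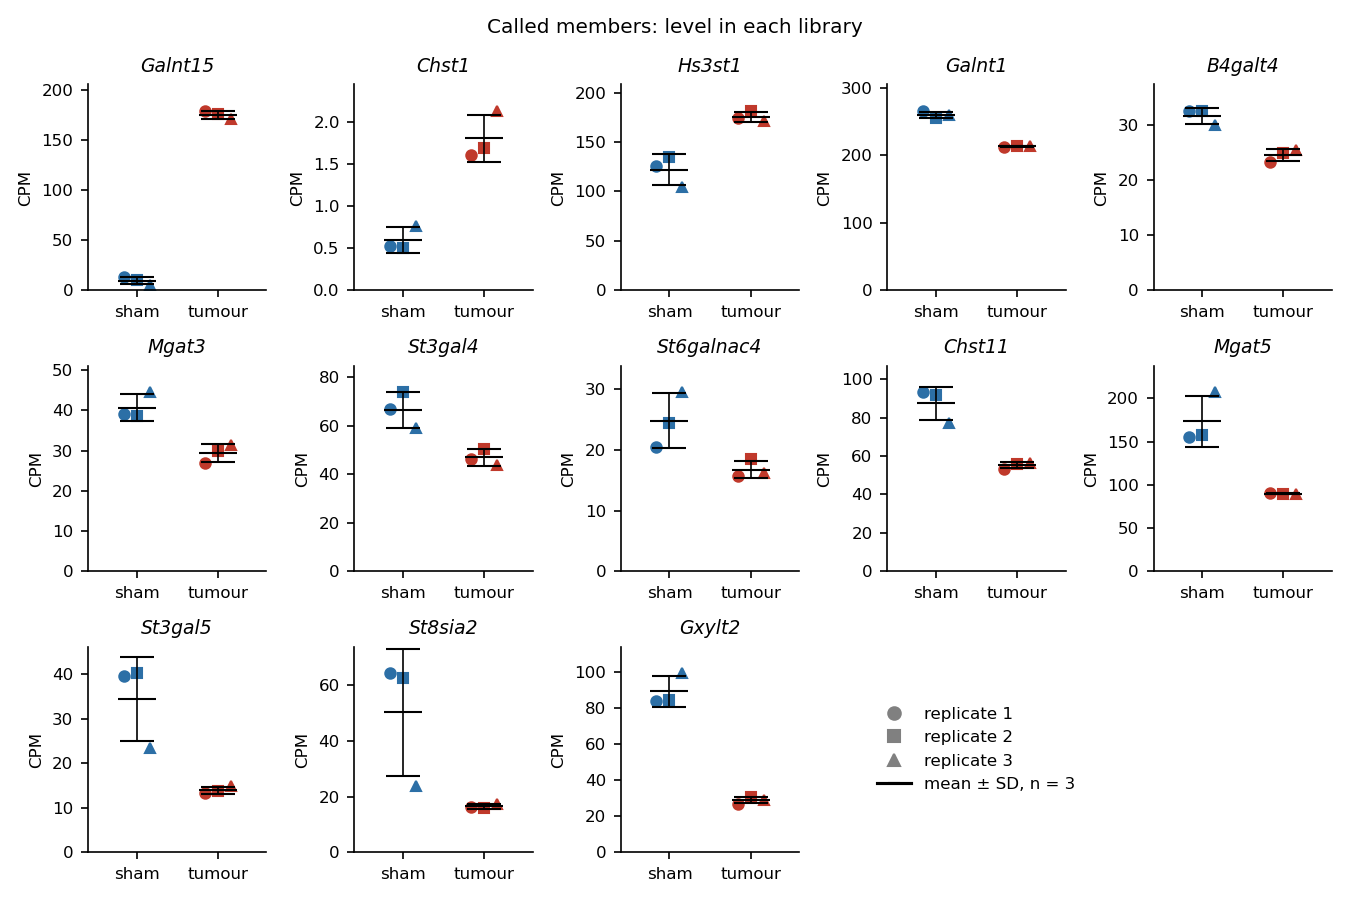
Level in CPM (vertical axes, from 0) of the 13 called members in each sham (blue) and tumour (red) library; symbols mark the replicate number and bars the mean ± SD over 3 libraries. Galnt15 stands at 171 to 179 CPM in the tumour libraries against 5.67 to 13 CPM in the sham libraries, and sham 3 of St8sia2 and St3gal5 lies nearer to the tumour libraries than sham 1 and 2.

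The calls of Galnt15, Gxylt2, Mgat5 and Chst11 held whichever of the 6 libraries was left out. With the libraries that nearly coincide summed, which leaves 1 tumour value against 2 sham values, edgeR called 0 of all 15683 genes tested. In that fit 4 of 87 members and 3.65% of all genes had an unadjusted p below 0.05. On the same sums DESeq2 called 0.561% of all genes, and of the members Galnt15 and Gxylt2. The promoters of Galnt15, Gxylt2, Mgat5 and Chst11, 250 bases before to 50 after a RefSeq start site in the GRCm38.p6 build, are shown. All 12 genes of a list of hypoxia markers, whose promoters are not shown, rose in the tumour libraries (median log2 change 2.86). That list was chosen with the rise known. Capitals mark the core of the hypoxia response element, searched as ACGTG or GCGTG on either strand (CACGT or CACGC on the strand shown; matches may overlap).
Galnt15, chr14:32028853-32029152, plus strand: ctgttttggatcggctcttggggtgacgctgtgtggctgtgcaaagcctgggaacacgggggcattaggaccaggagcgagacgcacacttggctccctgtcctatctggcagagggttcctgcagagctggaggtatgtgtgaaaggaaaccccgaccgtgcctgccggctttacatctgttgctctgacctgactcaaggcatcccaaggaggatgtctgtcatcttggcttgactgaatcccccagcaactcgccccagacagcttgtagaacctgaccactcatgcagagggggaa
Gxylt2, chr6:100704484-100704783, plus strand: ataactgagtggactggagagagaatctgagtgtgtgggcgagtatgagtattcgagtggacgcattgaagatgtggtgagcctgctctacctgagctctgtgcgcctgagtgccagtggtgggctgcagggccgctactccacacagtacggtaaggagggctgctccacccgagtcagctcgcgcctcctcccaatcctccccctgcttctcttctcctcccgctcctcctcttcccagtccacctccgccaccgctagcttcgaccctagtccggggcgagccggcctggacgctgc
Mgat5, chr1:127204736-127205035, plus strand: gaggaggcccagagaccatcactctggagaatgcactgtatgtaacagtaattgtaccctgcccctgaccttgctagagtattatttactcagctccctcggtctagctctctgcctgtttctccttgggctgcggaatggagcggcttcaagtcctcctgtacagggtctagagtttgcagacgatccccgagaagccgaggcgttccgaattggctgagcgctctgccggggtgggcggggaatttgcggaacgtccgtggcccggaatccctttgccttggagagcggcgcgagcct
Chst11, chr10:82985247-82985546, plus strand: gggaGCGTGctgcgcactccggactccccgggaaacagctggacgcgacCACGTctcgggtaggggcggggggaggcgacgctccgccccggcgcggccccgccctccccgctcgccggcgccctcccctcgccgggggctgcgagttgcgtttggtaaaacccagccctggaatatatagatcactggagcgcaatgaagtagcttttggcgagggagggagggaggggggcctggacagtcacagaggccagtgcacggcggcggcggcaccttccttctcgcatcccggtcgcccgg
Chst11 holds 2 matches in this window and the other 3 promoters hold 0. Of the 32851 promoters listed, 43.8% hold at least 1 match, and of the 106 promoters of 83 members 55.7% do. Among the called members, 0 of the 3 promoters of genes that rose and 4 of the 8 of genes that fell hold one. A match is no evidence of binding, and a missing match says only that these letters are not in these 300-base windows.

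Among genes that start mucin-type O-glycans, Galnt15 rose far more than any other and Galnt1 fell slightly. Galnt15, which encodes a GalNAc-transferase of this family, stood at 179, 176 and 171 CPM in tumour libraries 1 to 3 and at 13, 10.8 and 5.67 CPM in sham 1 to 3. Every tumour value was far above every sham value, and sham 3 was the lowest. This is a log2 change of 4.16 (SE 0.29, edgeR adjusted p = 0.00064), a 17.8-fold rise, which lay between 3.88 and 4.40 in the alternative fits. Galnt1, in TPM the most abundant GALNT gene, had 212, 213 and 214 CPM in the tumour libraries and 265, 255 and 259 CPM in the sham libraries (log2 change -0.29, SE 0.06, edgeR adjusted p = 0.0238). Its groups did not overlap, but the call ended without any 1 library other than sham 3 and with transcript length offsets.

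In TPM, Galnt15 made up 14.2%, 13.6% and 13.6% of the summed level of the 19 GALNT genes in the tumour libraries and 1.03%, 0.969% and 0.36% in the sham libraries. Galnt1 made up 37% ± 0.249 (SD, n = 3) and 45.2% ± 6.52, with 37.8% in sham 3. The summed level of the family was 303 ± 1.38 TPM and 294 ± 49.9 TPM (SD, n = 3) and overlapped between groups. Of 14 tested GALNT genes 1 was higher and 1 lower, beside 20.9% of all tested genes called, and the median log2 change was -0.15. Members that were not called include Galnt2, at 154 to 168 CPM in the tumour libraries and at 130, 130 and 261 CPM in sham 1 to 3, and Galnt17, at 96.4 to 97.8 CPM and at 55, 55.7 and 117 CPM. For both, the tumour libraries lay between sham 3 and the other sham libraries. Galnt16, Galnt18 and Galnt14 lay below all sham values without a call (log2 changes -0.55, -0.72 and -0.96, edgeR adjusted p = 0.0965, 0.0763 and 0.102). Galnt12 and Galnt3 lay above all sham values without a call (log2 changes 0.69 and 1.19, edgeR adjusted p = 0.0645 and 0.0877). Of the 14 tested GALNT genes 3 lay above and 5 below all sham values. These are 57.1% of them, beside 44.1% of all tested genes. Most reads of Galnt15 came from the transcript Galnt15-201, with 88.3% to 90.2% of them in the tumour libraries and 89.6% to 100% in the sham libraries. The other coding transcript, Galnt15-202, had 433, 420 and 506 reads in the tumour libraries and 0, 27 and 0 in the sham libraries.

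**Figure D2:**
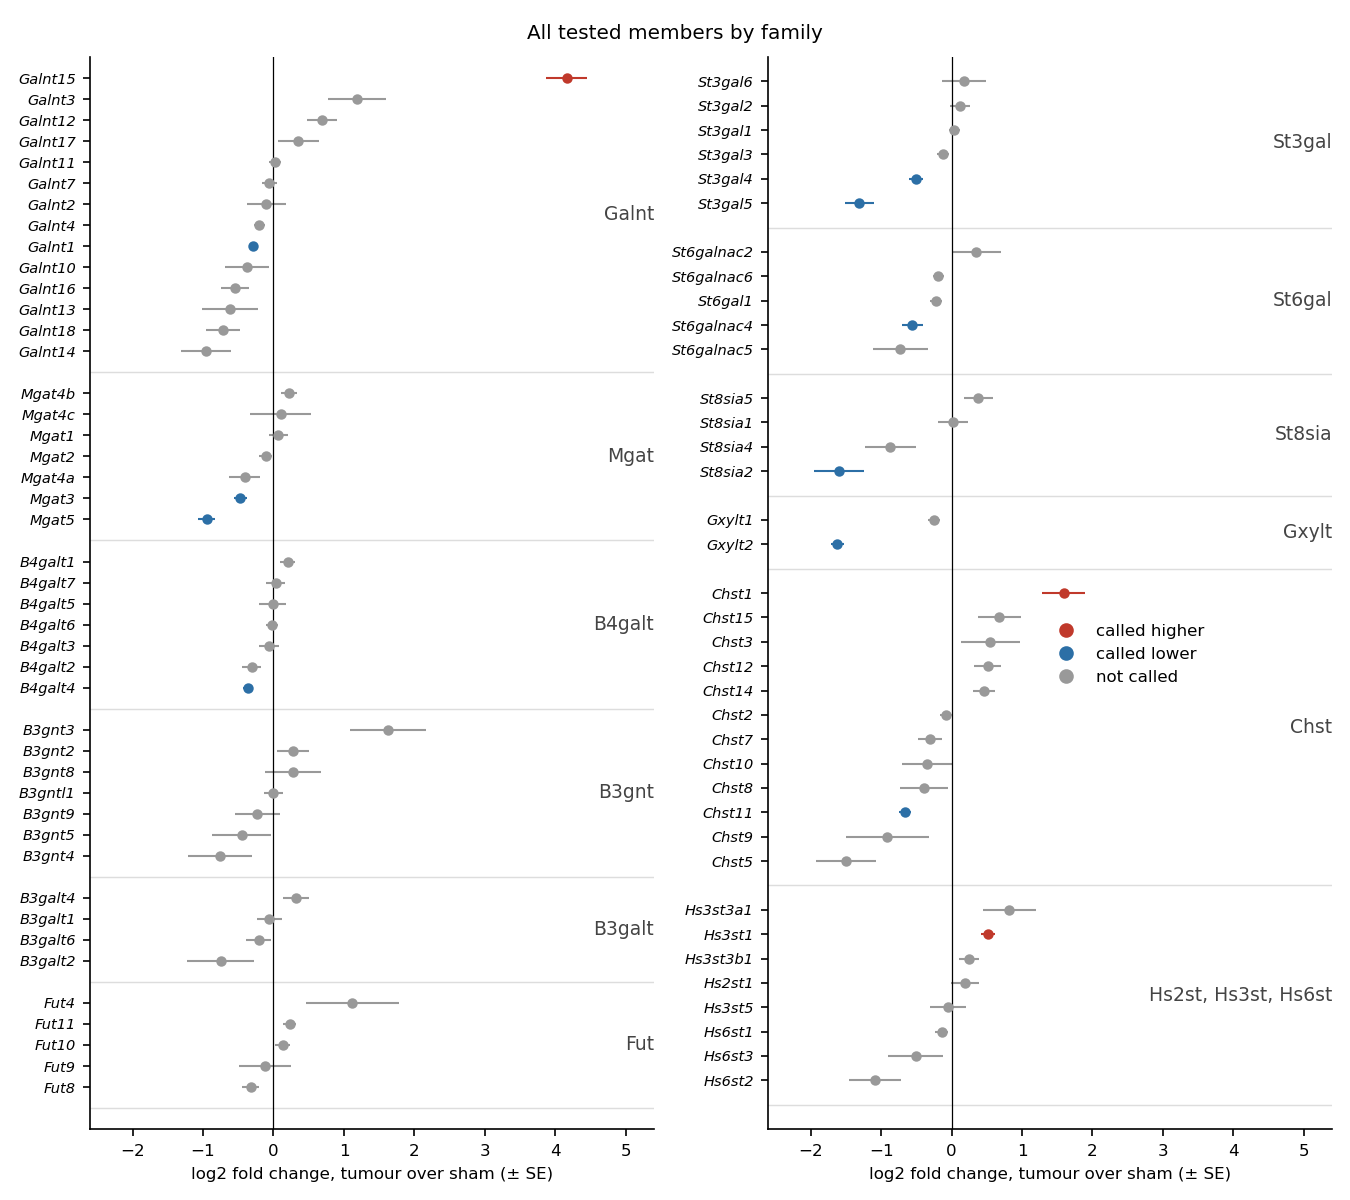
Log2 change of tumour over sham (horizontal axes, bars are SE) of the 81 tested members, grouped by family and ordered by size; red points were called higher, blue lower and grey not called. Galnt15 at 4.16 lies apart from the rest, which lie between -1.62 (Gxylt2) and 1.63 (B3gnt3).

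Of the N-glycan branching genes Mgat5 and Mgat3 fell, and Mgat1 and Mgat2, whose enzymes act before them, were not called. Mgat5, whose product adds the branch on which long galectin-binding chains are built, had 90.2, 89.7 and 89.6 CPM in the tumour libraries and 155, 158 and 207 CPM in the sham libraries. The 3 tumour values were nearly equal and all lay below the sham values, of which sham 3 was the highest. Its log2 change was -0.95 (SE 0.12, edgeR adjusted p = 0.00418). Mgat3, whose enzyme adds the bisecting residue that hinders further branching, had 27, 29.9 and 31.4 CPM against 39, 38.7 and 44.5 CPM (log2 change -0.47, SE 0.09, edgeR adjusted p = 0.0161). The call of Mgat3 ended without any 1 of the tumour libraries.

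Mgat1, which opens the way to complex N-glycans and is in TPM the most abundant MGAT gene, had 96.8 to 105 CPM in the tumour libraries and 87.3, 86.4 and 117 CPM in sham 1 to 3 (log2 change 0.07, SE 0.13, edgeR adjusted p = 0.749). Within each library the log2 ratio of Mgat5 to Mgat1 CPM was -0.18 ± 0.07 (SD, n = 3) in the tumour libraries and 0.84 ± 0.03 in the sham libraries, where sham 3 (0.82) did not stand apart. The groups did not overlap, and the two-sided exact permutation p was 0.10, the smallest that 3 against 3 can give. In all, 8 such ratios were computed and each gave this p. The numerator of every ratio is a member called in these same libraries, so this p adds no separate support. The log2 ratio of Mgat3 to Mgat5 was -1.60 ± 0.11 and -2.07 ± 0.12. Of 7 tested MGAT genes 0 were higher and 2 lower, beside 20.9% of all tested genes called. Their median log2 change was -0.11. Fut8, whose enzyme adds the core fucose of N-glycans, had 32.3 to 34.7 CPM and 45, 45.4 and 34.4 CPM (log2 change -0.32, SE 0.12, edgeR adjusted p = 0.102), so that sham 3 lay within the tumour range.

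Galactosyltransferases and the genes that extend or fucosylate chains held 1 call among 23 tested members of the B4galt, B3gnt, B3galt and Fut families. Among all tested genes 20.9% were called. B4galt4, a galactosyltransferase gene, had 23.3, 25 and 25.5 CPM in the tumour libraries and 32.5, 32.5 and 30 CPM in the sham libraries (log2 change -0.36, SE 0.07, edgeR adjusted p = 0.0192). The groups did not overlap, but the call ended without any 1 library other than sham 3. B4galt1, the main galactosyltransferase of N-glycans, had 132 to 141 CPM against 106, 110 and 139 CPM (log2 change 0.20, SE 0.11, edgeR adjusted p = 0.248). B3gnt2, which extends poly-N-acetyllactosamine chains, had 17.7 to 25.3 CPM and 12.4 to 22 CPM (log2 change 0.28, SE 0.23, edgeR adjusted p = 0.427). B3gnt3 was low, at 1.22 to 1.61 CPM in the tumour libraries and 0.132 to 0.726 CPM in the sham libraries, and its log2 change of 1.63 was not called (SE 0.54, edgeR adjusted p = 0.0775). B3galt4, a ganglioside galactosyltransferase gene, had 5.84 to 6.46 CPM and 4.31 to 6.13 CPM (log2 change 0.32, SE 0.18, edgeR adjusted p = 0.254).

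B3galt1 gave different answers by scale. Its reads per gene overlapped between the groups, at 6.66 to 8.78 CPM and 6.31 to 8.77 CPM (log2 change -0.06, SE 0.18, edgeR adjusted p = 0.853). With transcript length offsets the log2 change was 0.92 (SE 0.17, edgeR adjusted p = 0.0171). The noncoding transcript B3galt1-204 was estimated at 8, 10 and 18 reads in the tumour libraries and at 0, 0 and 3 reads in the sham libraries, and it carried 2.91, 3.23 and 5.54 TPM of the gene's 8.75, 6.92 and 8.62 TPM in the tumour libraries. The coding transcript B3galt1-202 had 136 to 176 and 129 to 194 reads. The higher summed TPM of the B3galt family in the tumour libraries, 17.5 ± 1.47 against 13 ± 0.827 (SD, n = 3), includes B3galt1-204. The sums were 19.1, 16.1 and 17.4 TPM in the tumour and 12, 13.2 and 13.6 TPM in the sham libraries. In the sham libraries B3galt1-204 carried 0, 0 and 1.06 TPM. Without this noncoding transcript the family sums would overlap between the groups.

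Sialyltransferases held 4 falls and 0 rises among 15 tested members, beside 10.4% of all tested genes called lower and 10.5% higher. Each of the 4 calls ended when single libraries were left out. St3gal5, the GM3 synthase that makes the parent ganglioside of the brain's complex series, had 13.3, 13.8 and 14.8 CPM in the tumour libraries and 39.6, 40.2 and 23.5 CPM in the sham libraries. All tumour values lay below all sham values, and sham 3 lay between. The log2 change was -1.31 (SE 0.21, edgeR adjusted p = 0.00914), and the call ended without tumour 1 (adjusted p = 0.0555) or tumour 2 (0.054). The transcript St3gal5-202 took 19.4%, 13.9% and 8.22% of the gene's reads in the sham libraries and 4.2%, 0% and 0.871% in the tumour libraries, the rest being almost all St3gal5-201. St3gal4, which caps N- and O-glycans and had the highest TPM of its family, stood at 46.2, 50.5 and 44 CPM against 66.8, 73.7 and 59 CPM (log2 change -0.50, SE 0.10, edgeR adjusted p = 0.0174), a call that ended without any 1 library other than sham 3. The summed St3gal level was 134 ± 0.813 TPM in the tumour and 153 ± 5.26 TPM in the sham libraries (SD, n = 3).

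St8sia2, a polysialyltransferase gene whose product extends polysialic acid on the adhesion molecule NCAM, had 16.3, 15.8 and 17.5 CPM in the tumour libraries and 64.3, 62.6 and 23.9 CPM in the sham libraries. The groups did not overlap, but sham 3 lay much nearer to the tumour libraries than to sham 1 and 2. Over all libraries the log2 change was -1.60 (SE 0.36, edgeR adjusted p = 0.026). On the log2 scale of CPM with 0.5 added, the tumour mean was lower by -1.91 than that of sham 1 and 2 and by -0.52 than sham 3. The call ended without any 1 library other than sham 3, without a filter (adjusted p = 0.0534) and under limma-voom (0.0563). The other polysialyltransferase gene, St8sia4, was at 0.395 to 0.497 CPM and 0.66 to 1.08 CPM (log2 change -0.87, edgeR adjusted p = 0.135). Ncam1 itself had 98.7 to 100 CPM in the tumour libraries and 70.1, 65.4 and 117 CPM in sham 1 to 3, and the log2 ratio of St8sia2 to Ncam1 was -2.58, -2.63 and -2.47 against -0.12, -0.06 and -2.27. Of 5 listed carriers of polysialic acid 0 were called.

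In TPM the St6gal family was led by St6galnac6, a ganglioside sialyltransferase gene at 49.3 to 55 CPM in the tumour and 55.3 to 63.2 CPM in the sham libraries (log2 change -0.19, SE 0.08, edgeR adjusted p = 0.131). St6galnac4, which adds sialic acid to O-glycans and gangliosides, had 15.7, 18.4 and 16.1 CPM against 20.5, 24.4 and 29.4 CPM (log2 change -0.56, SE 0.15, edgeR adjusted p = 0.0394). Its call ended without tumour 1, 2 or 3 or sham 2. St6gal1, which caps N-glycans, was at 83.8 to 89.9 and 96.4 to 112 CPM and was not called (log2 change -0.22, edgeR adjusted p = 0.0959). In 4 of the 5 tested members of this family all tumour values lay below all sham values, as in 21.9% of all tested genes, but 1 of the 5 was called. The summed level was 89.1 ± 5.34 TPM against 110 ± 1.69 TPM (SD, n = 3). St6galnac4 and St6galnac6 are neighbours on chromosome 2, ending at 32599698 and starting at 32599709 in GRCm38, so reads at their border may be hard to assign.

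**Figure D3:**
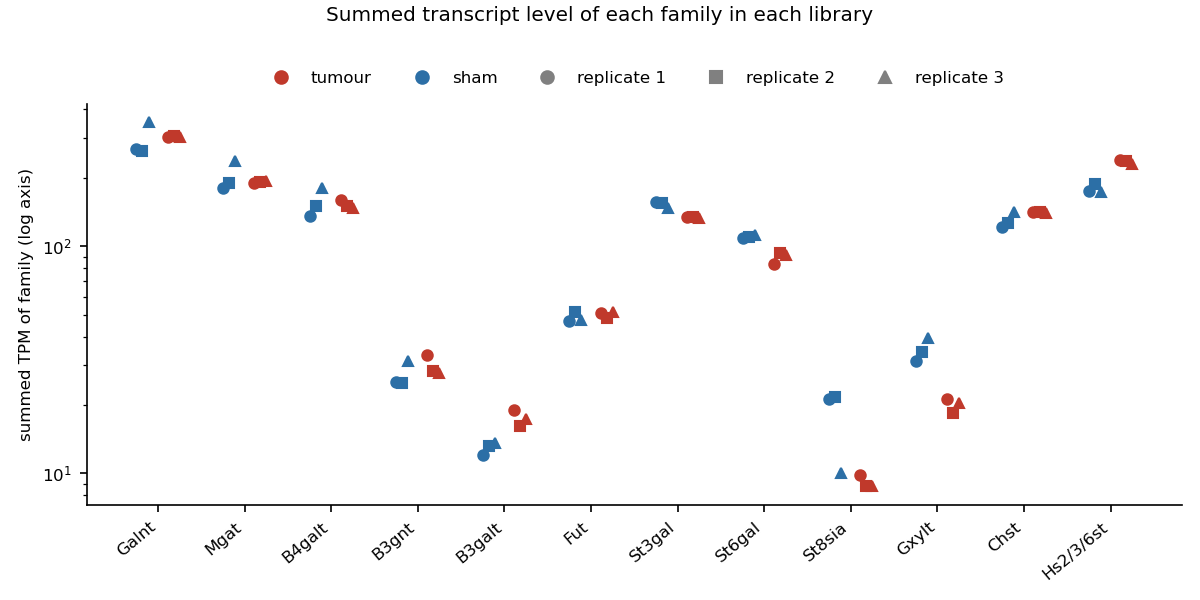
Summed TPM (vertical log axis) of each of the 12 families (horizontal axis) in each sham (blue) and tumour (red) library; symbols mark the replicate number. Hs2st, Hs3st and Hs6st genes together and the B3galt genes lie higher in all tumour libraries, and the St3gal, St6gal, St8sia and Gxylt genes lower, with sham 3 close to the tumour libraries for St8sia. Without the noncoding transcript B3galt1-204 the B3galt sums would overlap between the groups.

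The xylosyltransferases GXYLT1 and GXYLT2 add xylose to the O-linked glucose on epidermal growth factor repeats, as in Notch receptors. Gxylt2 had 27.1, 30.8 and 29.3 CPM in the tumour libraries and 84.3, 84.5 and 99.5 CPM in the sham libraries. Here sham 3 stood with the other sham libraries, and the groups were far apart. The log2 change was -1.62 (SE 0.09, edgeR adjusted p = 0.000336), a 3.08-fold fall, with a range of -1.67 to -1.54 in the alternative fits. Gxylt1 had 45.1, 39.3 and 44.4 CPM against 48.2, 49.8 and 54.9 CPM (log2 change -0.25, SE 0.08, edgeR adjusted p = 0.0855). The log2 ratio of Gxylt2 to Gxylt1 was -0.55 ± 0.19 in the tumour libraries and 0.80 ± 0.05 in the sham libraries (SD, n = 3; two-sided exact permutation p = 0.10). In TPM, Gxylt2 was 32.3% ± 3.33 of the pair in the tumour libraries and 55.6% ± 2.33 in the sham libraries, so that the more abundant of the pair differed between the groups. Gxylt2 lies on chromosome 6 from 100704734 to 100810913 in GRCm38.

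Carbohydrate sulfotransferases changed in both directions. Chst11, which places sulfate on the N-acetylgalactosamine of chondroitin, had 53.5, 55.6 and 56.6 CPM in the tumour libraries and 93.1, 91.7 and 77.4 CPM in the sham libraries. The groups did not overlap, with sham 3 the lowest of the sham libraries. Chst11 had a log2 change of -0.66 (SE 0.09, edgeR adjusted p = 0.00453). Chst12, whose enzyme sulfates the same position, had 53.5, 54.9 and 53.2 CPM against 31.5, 31.2 and 50.7 CPM (log2 change 0.51, SE 0.19, edgeR adjusted p = 0.108). Chst14, which sulfates dermatan, had 45.7, 45 and 43 CPM against 29, 27.8 and 40.6 CPM (log2 change 0.46, SE 0.15, edgeR adjusted p = 0.0739). Neither was called, although for both all tumour values lay above all sham values.

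The log2 ratio of Chst11 to Chst12 CPM was 0.00, 0.02 and 0.09 in the tumour libraries and 1.55, 1.54 and 0.60 in sham 1 to 3 (two-sided exact permutation p = 0.10). That of Chst11 to Chst14 was 0.23, 0.30 and 0.39 against 1.66, 1.70 and 0.92. In both ratios sham 3 lay between the tumour libraries and the other sham libraries. Chst15, which adds a further sulfate to chondroitin sulfate, had 14.5 to 16.5 CPM and 12.7, 11.3 and 5.22 CPM (log2 change 0.68, SE 0.31, edgeR adjusted p = 0.164). Among genes of keratan sulfate, Chst1 had 1.61, 1.69 and 2.13 CPM in the tumour libraries and 0.528, 0.499 and 0.771 CPM in the sham libraries (log2 change 1.59, SE 0.31, edgeR adjusted p = 0.017). Its call ended without any 1 library other than sham 3. Chst2, in TPM the most abundant member of the family, had 210 to 213 CPM and 205 to 236 CPM (log2 change -0.08, edgeR adjusted p = 0.499). Chst5 had 0.37 to 1.11 CPM and 1.72 to 2.4 CPM (log2 change -1.50, SE 0.43, edgeR adjusted p = 0.0521).

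Among heparan sulfate sulfotransferases only Hs3st1 was called of 8 tested, beside 20.9% of all tested genes. Hs3st1, known for making the antithrombin-binding site of heparan sulfate, had the highest TPM of all members. It stood at 174, 181 and 171 CPM in the tumour libraries and at 126, 135 and 105 CPM in the sham libraries, without overlap, and sham 3 was the lowest. The log2 change was 0.52 (SE 0.10, edgeR adjusted p = 0.0157), a 1.43-fold rise whose call ended without any 1 of the tumour libraries. Hs3st1 made up 75.7% ± 0.937 of the summed TPM of the heparan sulfate group in the tumour libraries and 68% ± 6.09 in the sham libraries (SD, n = 3), and the sum was 235 ± 5.29 TPM against 179 ± 7.31 TPM. Hs6st2 had 3 to 3.95 CPM and 8.62, 10.1 and 3.77 CPM (log2 change -1.09, SE 0.37, edgeR adjusted p = 0.0809), with sham 3 in the tumour range. Hs2st1 and Hs6st1, which sulfate iduronic acid and glucosamine, had log2 changes of 0.19 and -0.14 (edgeR adjusted p = 0.525 and 0.303).

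**Figure D4:**
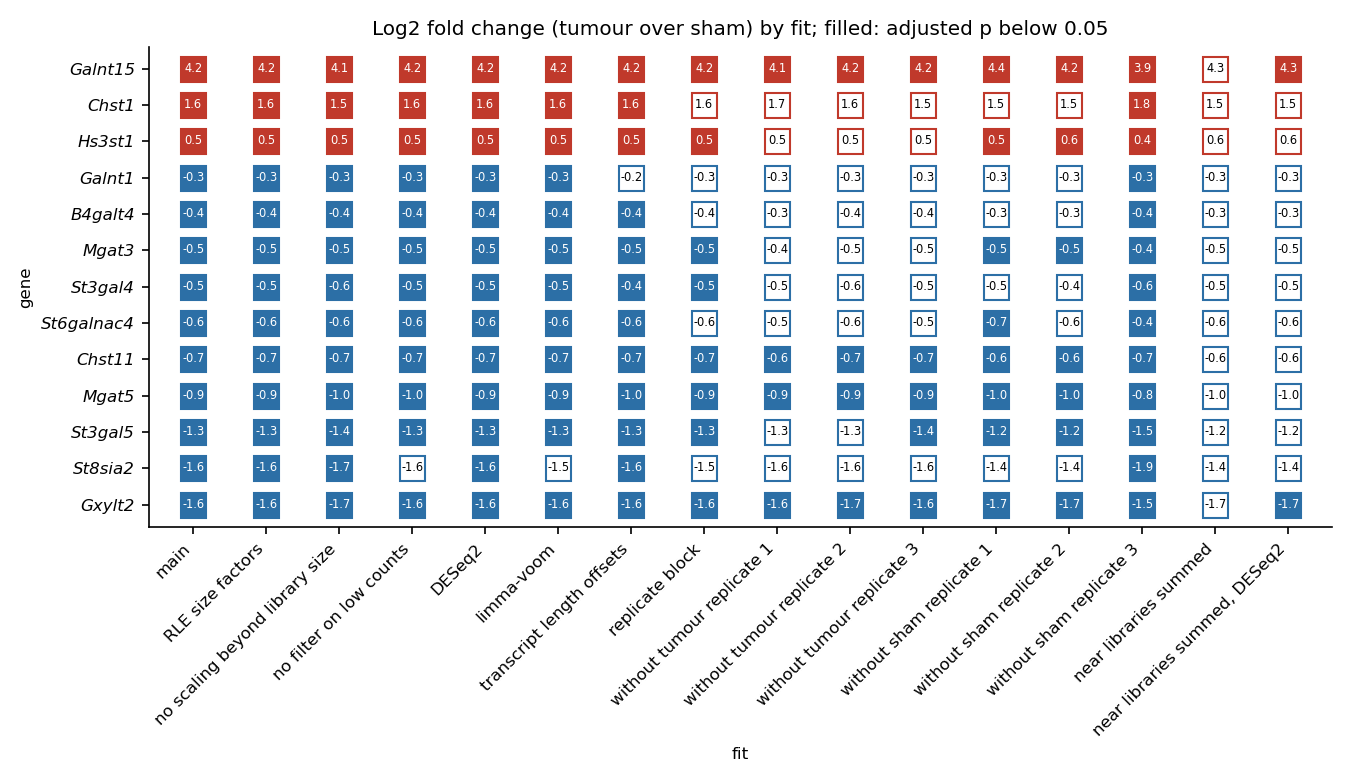
Log2 change of tumour over sham for the 13 called members (rows) in the reported fit and 15 alternative fits (columns); filled squares had an adjusted p below 0.05 and open ones did not, red is higher and blue lower. The sign of each of the 13 was the same in every fit, and the calls of Galnt15, Gxylt2, Mgat5 and Chst11 held in all 6 fits that left out 1 library.

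Genes that feed or surround these enzymes were taken from lists and read beside the 20.9% of all tested genes called. In sugar nucleotide synthesis 3 of 27 rose and 2 fell, with a median log2 change of -0.05. Ugdh, which makes the UDP-glucuronic acid of glycosaminoglycans, rose from 60.9, 59.2 and 84.6 CPM in the sham libraries to 132, 127 and 131 CPM (log2 change 0.93, SE 0.14, edgeR adjusted p = 0.00769). Papss2, which makes the sulfate donor PAPS, rose from 82.5, 81.5 and 52 CPM to 139, 137 and 133 CPM (0.92, SE 0.18, edgeR adjusted p = 0.0152). Mpi, a mannose phosphate isomerase gene, fell (-0.79, SE 0.13). Of 15 tested genes of Golgi transport 0 rose and 3 fell: Tmem165, a Golgi ion transporter gene (-0.58, SE 0.06), Slc35b4, a transporter of UDP-sugars (-0.50, SE 0.07), and Slc35a1, the CMP-sialic acid transporter gene (-0.32, SE 0.08). Their median log2 change was -0.20.

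On the proteoglycan linker and heparan sulfate list 2 of 18 tested genes rose and 3 fell (median log2 change -0.12). Heparanase, Hpse, which cuts heparan sulfate, rose from 3.43, 3.12 and 4.22 CPM to 21, 21.4 and 23.3 CPM (log2 change 2.61, SE 0.14, edgeR adjusted p = 0.000295). Sulf1, whose enzyme removes sulfate from heparan sulfate outside the cell, fell from 242, 239 and 281 CPM to 163, 162 and 154 CPM (-0.67, SE 0.09, edgeR adjusted p = 0.00457), and the chain polymerase gene Ext1 fell too (-0.51, SE 0.08). On the chondroitin and dermatan list 3 of 16 rose and 3 fell (median -0.02), among them Csgalnact2, which starts and extends chondroitin (0.66, SE 0.07), the lysosomal iduronidase gene Idua (0.54, SE 0.11) and Dse, a dermatan epimerase gene (-0.29, SE 0.06).

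In ganglioside synthesis and sialidases 2 of 9 tested genes rose and 0 fell (median log2 change -0.11). Ugcg, whose glucosylceramide synthase stands upstream of St3gal5, rose from 28.8, 28.7 and 51.7 CPM to 81.7, 88.3 and 79.8 CPM (1.19, SE 0.24, edgeR adjusted p = 0.0171), and Siae, a sialic acid esterase gene, rose by less (0.37, SE 0.06). On the O-fucose, O-glucose and O-mannose list 0 of 19 rose and 3 fell (median -0.19), among them Lfng, which elongates O-fucose on Notch (-0.73, SE 0.09), and Pomgnt2 (-0.34, SE 0.07). On the N-glycan trimming list 2 of 13 rose, among them Hexa, a lysosomal hexosaminidase gene (0.57, SE 0.08), and the mannosidase gene Man1a fell (-0.33, SE 0.07; median of the list 0.10). The last list joins genes of O-glycan cores with other N-acetylgalactosaminyl- and galactosyltransferase genes. Of its 12 tested genes 1 rose and 0 fell (median 0.25). The 1 was Ggta1 (0.46, SE 0.10), whose enzyme caps N-glycans and glycolipids with galactose and builds no O-glycan core. The core genes C1galt1, C1galt1c1, Gcnt1, Gcnt3 and Gcnt4 were not called. Gcnt3 nevertheless had the largest log2 change of this list (2.41, SE 0.84, edgeR adjusted p = 0.089). It stood at 16.1, 14.6 and 16.5 CPM in the tumour libraries and at 0.704, 0.79 and 7.44 CPM in sham 1 to 3.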

How the data were processed

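RNA of 6 astrocyte libraries (3 tumour, 3 sham) was sequenced, and groups and replicate numbers come from the sample titles. The submitters' processing notes name the tools Salmon (0.8.2) and DESeq2 (1.28.1), and as build mm10. The deposited tables give, per the file headers, an estimated count of reads and a TPM for each transcript, with its length and effective length in bases. The library kit, its strandedness and the settings of the quantification were not given in the sources used here. Estimation splits reads shared between transcripts, so near-identical sequences have less certain values.

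Of 113116 transcripts 112841 matched GENCODE M21 (GRCm38, the assembly of mm10) by identifier without version. Per gene the deposited estimated counts were added and then rounded; 2 overlapping models named St6galnac2 were added together. Genes were kept by filterByExpr (minimum count 10, minimum total 15). The test was edgeR 4.0.16 (R 4.3.3) with TMM scaling and a robust quasi-likelihood fit on group over all 6 libraries, adjusted by Benjamini-Hochberg over the 14359 genes tested, threshold 0.05. Each SE was taken from the fold change and the F statistic (log2 change over the root of F), so it restates the test. CPM use TMM library sizes; TPM are the deposited values summed per gene. Same-numbered libraries did not deviate together (correlations 0.00785, -0.0194 and -0.000806), so replicate numbers were no term of the fit. These correlations cannot settle whether the libraries were paired, because most of them nearly coincide within their group.

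Members, lists and alternatives were chosen with earlier results of these data known. Named members are those called, the most abundant and the most changed (mean of at least 5 CPM) of each family, and the 3 largest rises and falls; others named were chosen after their values were seen. Alternatives were other scalings, no filter, DESeq2 1.42.0, limma-voom (limma 3.58.1), length offsets, a replicate block, leaving out each library, and summing the libraries that nearly coincide; DESeq2 on those sums was added after seeing the data. The scripts were tested on simulated data. Values of some listed genes are not reported here.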

Additional observations from a re-analysis of the deposited data

How the results depend on the processing

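Beside the 3 higher and 10 lower members reported, DESeq2 called 5 higher and 14 lower, with 24.9% of all tested genes called. The counts under other scalings, without a filter, with limma-voom and with length offsets stayed within 1.5 times. The shares of all tested genes called were 20.8% and 22.7% under the other scalings and 12.9% without a filter. They were 21.8% with limma-voom and 14.2% with length offsets, against 20.9% in the reported fit. With the replicate number as a block, 2 were higher and 6 lower, with 10% of all tested genes called. The labels do not say whether same-numbered samples are paired. Leaving out 1 library gave 1 to 23 higher and 3 to 24 lower: 1 higher and 3 or 4 lower without tumour 1, 2 or 3 (6.17% to 6.33% of all tested genes called), 2 higher and 6 or 5 lower without sham 1 or 2 (10.4% to 11.1%), and 23 and 24 without sham 3 (57.7%). With tumour 1 to 3 summed and sham 1 and 2 summed, 1 tumour value stood against 2 sham values. edgeR then called 0 members higher and 0 lower, as it called 0 of all 15683 genes; an unadjusted p below 0.05 was had by 4 of 87 members and 3.65% of all genes. By DESeq2 there were 1 higher (Galnt15) and 1 lower (Gxylt2), beside 0.561% of all genes. The 13 called members kept their sign in all 15 alternatives. B3galt1 changed sign with length offsets (0.92), without tumour 2 (0.03), without sham 1 (0.00) or sham 2 (0.02), and with summed libraries in edgeR (0.01) and DESeq2 (0.02). Mgat1 did so without sham 1 or sham 2 (-0.01 each) and with summed libraries in edgeR (-0.01) and DESeq2 (-0.00). Leave-one-out values ranged from -0.20 to 0.03 for B3galt1 and from -0.01 to 0.23 for Mgat1. The cause was not tested. Members below about 1 CPM rest on few reads.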
